A study of Mus musculus with 2 samples.

Results

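The genes described here are the subunits and activators of the proteasome. They are the 47 of 20476 genes in the deposited table whose symbols begin with Psma, Psmb, Psmc, Psmd, Psme, Psmf or Psmg and go on with a number, which leaves out Psmc3ip, a recombination factor that only shares the prefix. The rule reads symbols only, although the members were chosen with earlier results of these data known. The members are 8 alpha subunits of the core, 10 beta subunits of the core, 6 ATPases, 14 further genes of the regulatory particle, 4 caps, 1 inhibitor and 4 assembly chaperones of the core. All 47 had a position in the annotation, and 1 of them, Psmd10, lies on the X chromosome. Their totals in the table ran from 152 to 304029 unique molecular identifiers (UMIs, each the tag of 1 captured RNA molecule).

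The proteasome is the barrel that degrades proteins tagged with ubiquitin. Its core particle stacks rings of alpha subunits, which form the gate, around rings of beta subunits, of which Psmb5, Psmb6 and Psmb7 cut the chain. Immune signals replace these cutters with Psmb8, Psmb9 and Psmb10. The regulatory particle binds the core at its ends: ATPases (Psmc genes) unfold the substrate, and a lid removes ubiquitin. Other caps open the core without ubiquitin: Psme1 with Psme2, Psme3 in the nucleus, and Psme4 (PA200), which is known in testis for its part in histone degradation. Psma8 is the testis paralogue of the alpha subunit Psma7, and the core that carries it is known as the spermatoproteasome.

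Testicular cells of adult mice were captured with droplet 3′ chemistry, 1 library from wild-type (WT) animals and 1 from animals without miR-202 (miR-202-/-), both of the strain label C57BL/CJ;ICR. The labels do not say how many animals each suspension pooled. The stated question was how cell composition and expression differ between these genotypes. The deposited table joins both libraries. The barcodes end in a suffix, called mark 1 or mark 2 here, and each mark is taken to be 1 library. No label states this, and none ties a mark to a genotype. No value is therefore assigned to WT or miR-202-/-, no genotype comparison was made, and mature miR-202 is not measured by this assay. Each pair of values below gives mark 1 first and mark 2 second; these marks are not replicates of 1 group, and nothing was tested.

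Mark 1 held 12935 barcodes with 158740437 UMIs and mark 2 held 15310 barcodes with 168967776 UMIs; 73 barcode sequences occurred under both marks. Barcodes were sorted into 10 germ and 5 somatic classes by marker genes that include no proteasome gene. Pachytene barcodes, for instance, passed on the piRNA pathway genes Piwil1, Tdrd1 and Tdrd5, round spermatids on the acrosome genes Acrv1 and Spaca1 or on Spam1 and Catsper3, and elongating spermatids on the transition proteins Tnp1 and Tnp2. The cuts were set after the table had been seen. In all, 11380 barcodes passed exactly 1 of these gates, 233 passed several and were left out, and 16565 passed none. The gates held 1326 and 1512 barcodes for elongating spermatids but only 38 and 28 for stromal cells. Median depth ran from 47736 and 39018.5 UMIs in the Aurka positive and Acrv1 low gate to 4854 and 4274 in the Sertoli gate and 4583 and 4403 in the Leydig gate. Among markers that no gate used, 12 of 15 for round spermatids and 11 of 11 for elongating spermatids were highest in their own gates, against 5 of 14 for pachytene. The same count was 8 of 10 for leptotene to zygotene, 7 of 13 for the Aurka gates together, 3 of 3 for macrophage and 1 of 3 for T or NK. The spermatogonium, Sertoli, Leydig and stromal gates used all their measured markers, so this check does not cover them. The Aurka positive and Acrv1 low gate, the Aurka and Acrv1 positive gate and the early round gate had none of their own markers among their 10 leading genes; the first 2 are called by their gate genes only. The pachytene markers Tdrd6, Adam2, Clgn, Pgam2, Nxt1, Pou5f2 and Tbpl1, which no gate used, were highest in the Aurka positive and Acrv1 low gate. Pou5f2 was also among the leading genes of that gate. Whether its barcodes come after the pachytene barcodes was not tested.

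Free RNA weighs on every low level. As its measure serve 2637 ungated barcodes from the lowest 10% by UMIs under each mark, called low-UMI barcodes here. From Prm1, Prm2, Tnp1 and Tnp2, its share was put at 38% and 39.5% of the UMIs of the spermatogonium gate, 47.8% and 53.5% of the leptotene to zygotene gate and 16.1% and 19.9% of the pachytene gate. The same estimate gave 125% and 122% for Sertoli, 78.5% and 76.5% for macrophage and 85.8% and 96.4% for T or NK barcodes. The Sertoli values exceed the whole of the UMIs, so the estimate is rough and not a literal share. That the low-UMI barcodes hold free RNA only was not tested. A somatic level near that of the low-UMI barcodes is thus not told apart from background.

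Promoter windows are shown for the induced cutters and for Psmb5, which Psmb8 replaces, because the contrast between immune and other classes turns on them. Of the 47 members, 39 had a window of 250 bases before a RefSeq start (GRCm38.p6), and 3 of these, Psma6, Psmc2 and Psme2, had 2 starts. In these windows 6 motif patterns were searched on both strands, and matches were allowed to overlap. Capitals mark the matches. The windows lie at chr17:34197945-34198194 (plus strand), chr14:54617996-54618245 (minus strand), chr17:34187331-34187580 (minus strand) and chr8:105938393-105938642 (minus strand), and are written 5′ to 3′ along the gene:
Psmb8: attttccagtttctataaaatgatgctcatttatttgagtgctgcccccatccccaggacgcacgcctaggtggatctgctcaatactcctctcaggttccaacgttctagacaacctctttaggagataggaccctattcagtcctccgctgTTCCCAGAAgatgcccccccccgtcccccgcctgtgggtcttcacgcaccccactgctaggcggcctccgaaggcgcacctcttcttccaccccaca
Psmb5: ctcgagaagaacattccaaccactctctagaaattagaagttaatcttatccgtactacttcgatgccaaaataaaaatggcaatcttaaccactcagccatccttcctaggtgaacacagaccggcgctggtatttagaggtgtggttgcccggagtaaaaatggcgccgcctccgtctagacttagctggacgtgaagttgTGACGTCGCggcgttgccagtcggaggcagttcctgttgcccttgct
Psmb9: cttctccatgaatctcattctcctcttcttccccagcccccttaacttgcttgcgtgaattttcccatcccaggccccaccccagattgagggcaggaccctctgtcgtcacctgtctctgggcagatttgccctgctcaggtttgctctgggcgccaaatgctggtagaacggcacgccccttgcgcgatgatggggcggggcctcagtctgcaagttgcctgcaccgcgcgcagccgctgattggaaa
Psmb10: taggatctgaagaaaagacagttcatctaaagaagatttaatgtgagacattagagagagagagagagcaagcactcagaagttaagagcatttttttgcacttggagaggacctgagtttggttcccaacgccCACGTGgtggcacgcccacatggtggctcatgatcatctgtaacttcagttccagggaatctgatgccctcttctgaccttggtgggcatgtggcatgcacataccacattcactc

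The capitals in Psmb8 are a gamma-activated site (TTCNNNGAA), a motif named for its part in interferon-gamma responses, 97 bases before the start. Psmg1 was the only other member found with that pattern, so that 5.13% of the 39 members with a window held it, against 7.02% of all 32851 windows. The member percentages here and below are of these 39 and count each member once, while those of all windows count single windows. The capitals in Psmb5 are the core of an antioxidant response element (TGACNNNGC), 47 bases before the start. It was also in the windows of Psmb6, Psmc6, Psmd9 and Psmd12, 12.8% of the members against 10.2% of all windows. The capitals in Psmb10 are an E-box (CACGTG), found in 4 members, 10.3%, against 6.02% of all windows. The window of Psmb9 held none of the 6. In the gene annotation, Psmb8 spans 34197721 to 34201454 and Psmb9 spans 34181987 to 34187764 of chr17. Both windows thus lie wholly inside the annotated genes, and bases before those annotated starts were not searched. The windows of Psmb5 and Psmb10 lie partly inside their annotated genes. The interferon-stimulated response element, a repeat of GAAA with 2 bases of any kind between, was in the windows of Psmb3, Psmd4 and Psmd9, 7.69% of the members against 2.98% of all. The cyclic AMP element (TGACGTCA) and the NF-kappaB site of the immunoglobulin kappa enhancer were in none, against 1.55% and 0.14% of all windows.

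Together the members made up 8825 and 8959 CPM (UMIs of a gene for each 1000000 UMIs of a class) in spermatogonia. The sum was 6249 and 7005 CPM in the leptotene to zygotene gate, 7871 and 8559 in pachytene, 6101 and 6278 in later round spermatids and 4721 and 4686 in elongating spermatids. What lay under these sums became less even. The 6 most abundant members held 27.4% and 27.5% of all proteasome UMIs in spermatogonia, 35.4% and 33.3% in pachytene, 58% and 56.5% in later round and 81% and 81.7% in elongating spermatids. In the last class these were Psma6, Psmf1, Psmc2, Psmd8, Psmc3 and Psme4, and Psma6 alone held 31.1% and 32.9%. Across the germ gates, 20 members were highest in spermatogonia under both marks, 8 in pachytene and 3 (Psmc3, Psmd7 and Psmd8) in the Aurka positive and Acrv1 low gate. Psmb6 and Psmd9 peaked in the Aurka and Acrv1 positive gate, and Psmg3, Psmc2, Psme3, Psmf1 and Psma6 each in another gate, while for 9 members the marks named different gates. Peak gates were not counted over all genes, so these counts are not read as particular to the proteasome. In the heat map of all members, the upper rows fade from left to right while a few rows brighten.

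**Figure D1:**
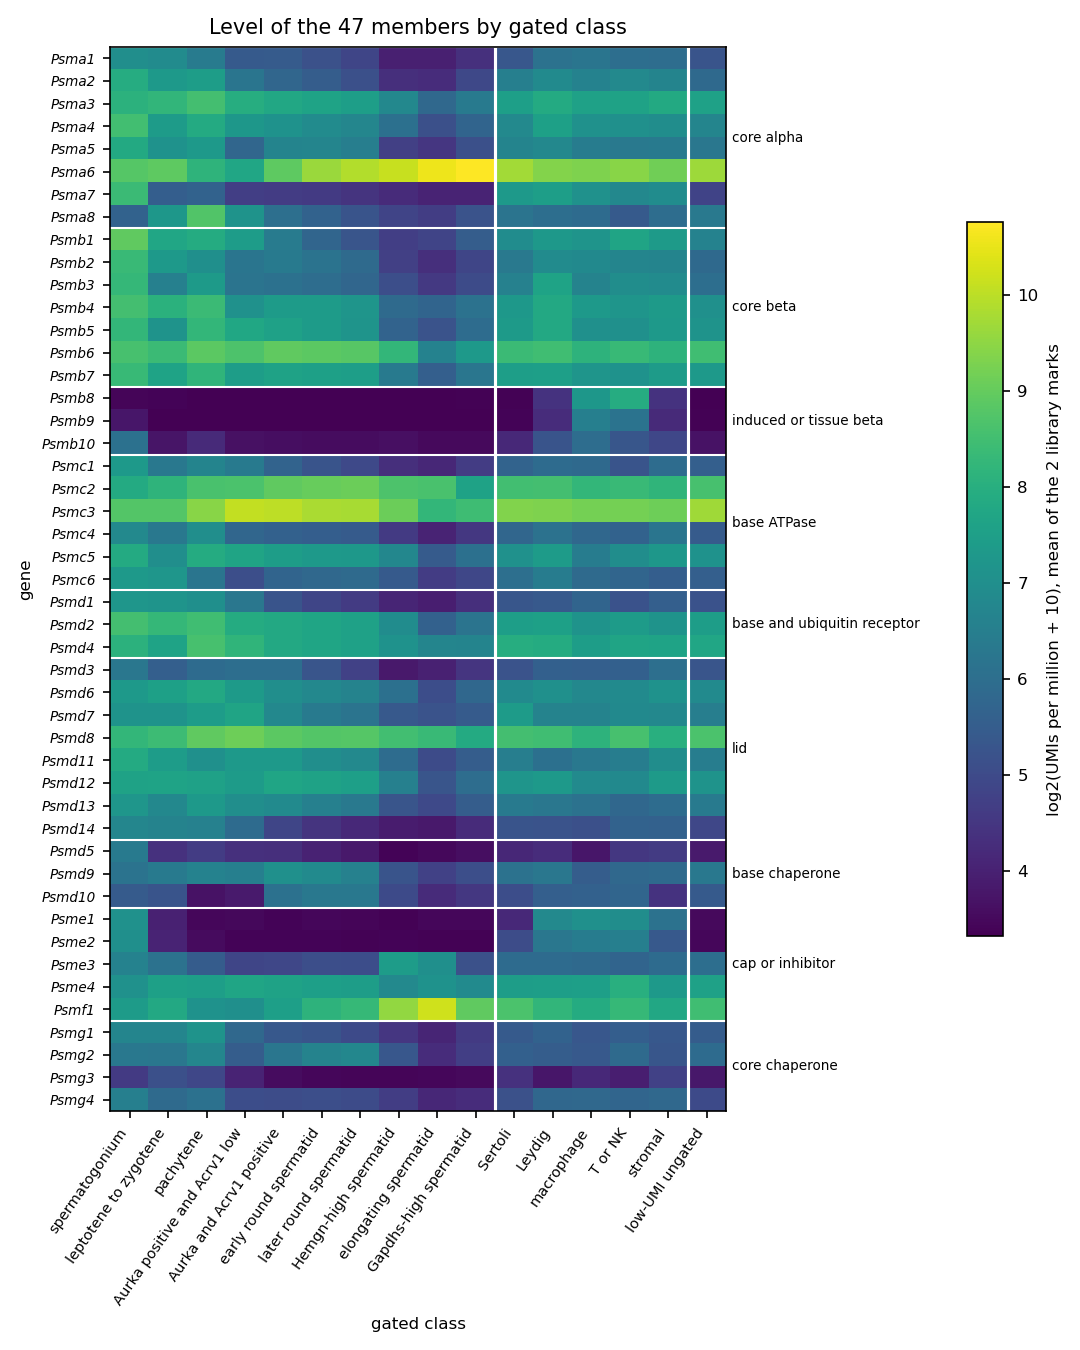
Levels of the 47 members (rows, ordered by role) in 10 germ gates, 5 somatic gates and the low-UMI barcodes (columns), as log2(CPM + 10) averaged over the 2 marks. Psma6, Psmf1 and Psmc3 are bright in spermatids, Psme1 and Psme2 are dark in every germ gate after spermatogonia, and the somatic columns resemble the low-UMI column for most rows.

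Changes between classes were read by size. A member was called higher or lower where the ratio of its CPM reached 1.5, the same way for mark 1 and mark 2. Only genes with 20 UMIs or more in both classes summed, counted for each mark, were measured. Of 45 members measured, 4 were higher and 14 lower in pachytene than in spermatogonia. Over all 13201 genes measured there, 23.9% were higher and 43.0% lower, and the members' median log2 ratio was -0.33 and -0.07 against -0.47 and -0.41 for all genes. Scaling by the median ratio, which added 0.40 and 0.32 to each log2 ratio, turned the split to 13 higher and 10 lower. Under that scaling the calls of Psma4, Psmb3, Psmc1 and Psmd11 ended.

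In round spermatids against pachytene, 3 of 45 members were higher and 29 lower, where 35.3% of 15488 genes were higher and 39.9% lower. The members' median was -1.05 and -1.07 and that of all genes -0.18 and -0.13. In elongating against round spermatids, 3 of 45 were higher and 35 lower, beside 13.9% and 64.0% of 15545 genes. Here the medians were -1.67 and -1.78 for the members and -1.17 and -1.27 for all genes. Scaling by the median ratio added 0.59 and 0.58 in the former comparison and 1.14 and 1.22 in the latter, which made the splits 6 to 18 and 8 to 20. It ended the round spermatid calls of Psma3, Psma4, Psma5, Psmb2, Psmb4, Psmb5, Psmb7, Psmd2, Psmd4, Psmd6 and Psmd13. In elongating spermatids it ended those of Psma2, Psmb3, Psmc1, Psmc3, Psmc6, Psmd1, Psmd7, Psmd13, Psmg1 and Psmg4, and turned Psma7, Psma8, Psmb1, Psmd4 and Psmd14 to the higher side. The members lower in round spermatids included 7 of 8 alpha subunits, 6 of 7 constitutive beta subunits, all 3 large base subunits and 5 of 8 lid subunits, but only 2 of 6 ATPases. These members are drawn by role in the plot of log2 ratios.

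**Figure D2:**
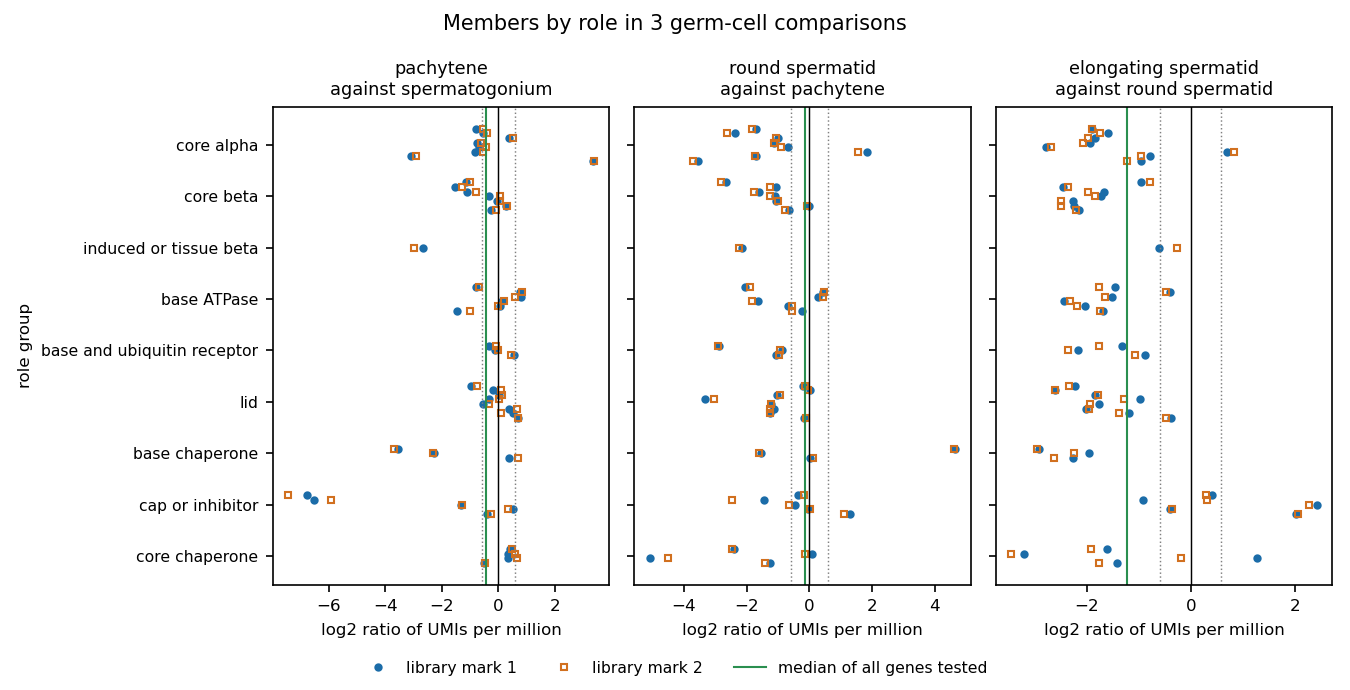
Log2 ratios of CPM of each member measured (points, by role group) in 3 comparisons, under mark 1 (filled circles) and mark 2 (open squares). Dotted lines mark a 1.5-fold difference and the green line the median of all genes measured; Psma8, Psmd10, Psma6, Psmf1 and Psme3 stand to the right of their groups, and Psme1 and Psme2 lie far to the left in the first panel.

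Psma7 and its paralogue Psma8, which takes its place in the alpha ring, changed over between spermatogonia and pachytene. Psma7 was at 328 and 329 CPM in spermatogonia and 38.4 and 43.3 in pachytene, a level 8.55-fold (95% interval 7.63 to 9.6) and 7.6-fold (95% interval 6.76 to 8.56) lower. Psma8 was at 37.8 and 42.9 CPM in spermatogonia and 388 and 445 in pachytene, 10.3-fold (95% interval 8.37 to 12.7) and 10.4-fold (95% interval 8.49 to 12.8) higher. The leptotene to zygotene gate, with 47.8% and 53.5% of its UMIs put down to free RNA, held more Psma8, 119 and 170.0 CPM, than Psma7, 30.9 and 42.5 CPM. The low-UMI barcodes also held more Psma8, 78.1 and 63.5 CPM, than Psma7, 17.3 and 18.6. Per barcode, Psma7 went from 4.49 and 4.16 UMIs in spermatogonia to 1.65 and 1.53 in the deeper pachytene barcodes, while Psma8 went from 0.516 and 0.542 to 16.7 and 15.7. The files do not say how reads that match both genes were counted.

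Psma8 accounted for 10.3% (94 of 911 UMIs, interval 8.42% to 12.5%) and 11.5% (97 of 841 UMIs, interval 9.45% to 13.9%) of the UMIs of this pair in spermatogonia. Its share was 79.4% and 80.0% in the leptotene to zygotene gate and 91% (4797 of 5272 UMIs, interval 90.2% to 91.7%) and 91.1% (4713 of 5171 UMIs, interval 90.3% to 91.9%) in pachytene. The low-UMI barcodes had 81.9% and 77.3%, close to the leptotene to zygotene share, and the part of free RNA in that share was not tested. After 89.6% and 88.9% in the Aurka positive and Acrv1 low gate, the share was 75.5% and 74.2% in early round and 70.8% and 68.1% in elongating spermatids. Every one of the 288 and 300 pachytene barcodes had more Psma8 than Psma7 UMIs. In spermatogonia 87.4% and 85.5% of the barcodes had more Psma7, and 2.75% and 2.79% more Psma8. With all barcodes thinned to 3000 UMIs, Psma8 was found in 67.4% and 73.7% of pachytene and 8.79% and 14% of spermatogonium barcodes, and the latter lay below the 20.6% and 17.2% of the low-UMI barcodes. Unthinned, it was found in 100.0% and 100.0% of pachytene barcodes, at median depths of 40701.5 and 33016.5 UMIs, and in 39% and 42.5% of spermatogonium barcodes, at 12561 and 11332 UMIs. In the low-UMI barcodes the shares were 25.6% and 20.3%, at 4041 and 3629 UMIs. How much of the Psma8 in spermatogonia comes from free RNA was not tested.

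Both paralogues were lower in the gates listed after pachytene than in the pachytene gate. Psma8 stood at 138 and 128 CPM in the Aurka positive and Acrv1 low gate, 62.5 and 49.9 in the Aurka and Acrv1 positive gate, 40.6 and 41.6 in early round and 28 and 29.1 in later round spermatids. It was at 15.2 and 22.5 CPM in Hemgn-high, 16.8 and 14.4 in elongating and 31.9 and 23.4 in Gapdhs-high spermatids. Against pachytene, the round spermatids together were 11.8-fold (95% interval 11.1 to 12.7) and 13.2-fold (95% interval 12.4 to 14.1) lower. Psma7 stayed between 5.78 and 16 CPM in the 7 gates listed after pachytene, at or below its low-UMI level of 17.3 and 18.6. From round to elongating spermatids both were lower again (1.72-fold and 1.94-fold for Psma7, 1.95-fold and 2.33-fold for Psma8), less than the median gene, and after scaling by the median ratio both turned to a mean log2 ratio above 0, 0.31 and 0.090.

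In somatic classes the pair stood the other way round. Psma7 was at 148 (133 to 163) and 153 (137 to 169) CPM in Sertoli barcodes (95% Poisson intervals), 155 and 183 in Leydig, 123 and 126 in macrophage, 111 and 90.2 in T or NK and 84.2 and 150.3 in stromal barcodes, all above the low-UMI level. Psma8 was at 57.2 and 68.1 CPM in Sertoli, 69.2 and 41.5 in Leydig, 69.5 and 36.4 in macrophage, 39.2 and 27.1 in T or NK and 37.4 and 75.1 in stromal barcodes, against 78.1 and 63.5 in the low-UMI barcodes. Of these 10 values, 2 passed the low-UMI level, Sertoli and stromal barcodes under mark 2, at 1.07 and 1.18 times. Sertoli barcodes met the 1.5-fold rule for more Psma8 than spermatogonia, a call that ended when barcodes were thinned, weighted equally, trimmed of the deepest 10% or scaled by the median ratio. The plot of both genes by class shows the exchange.

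**Figure D3:**
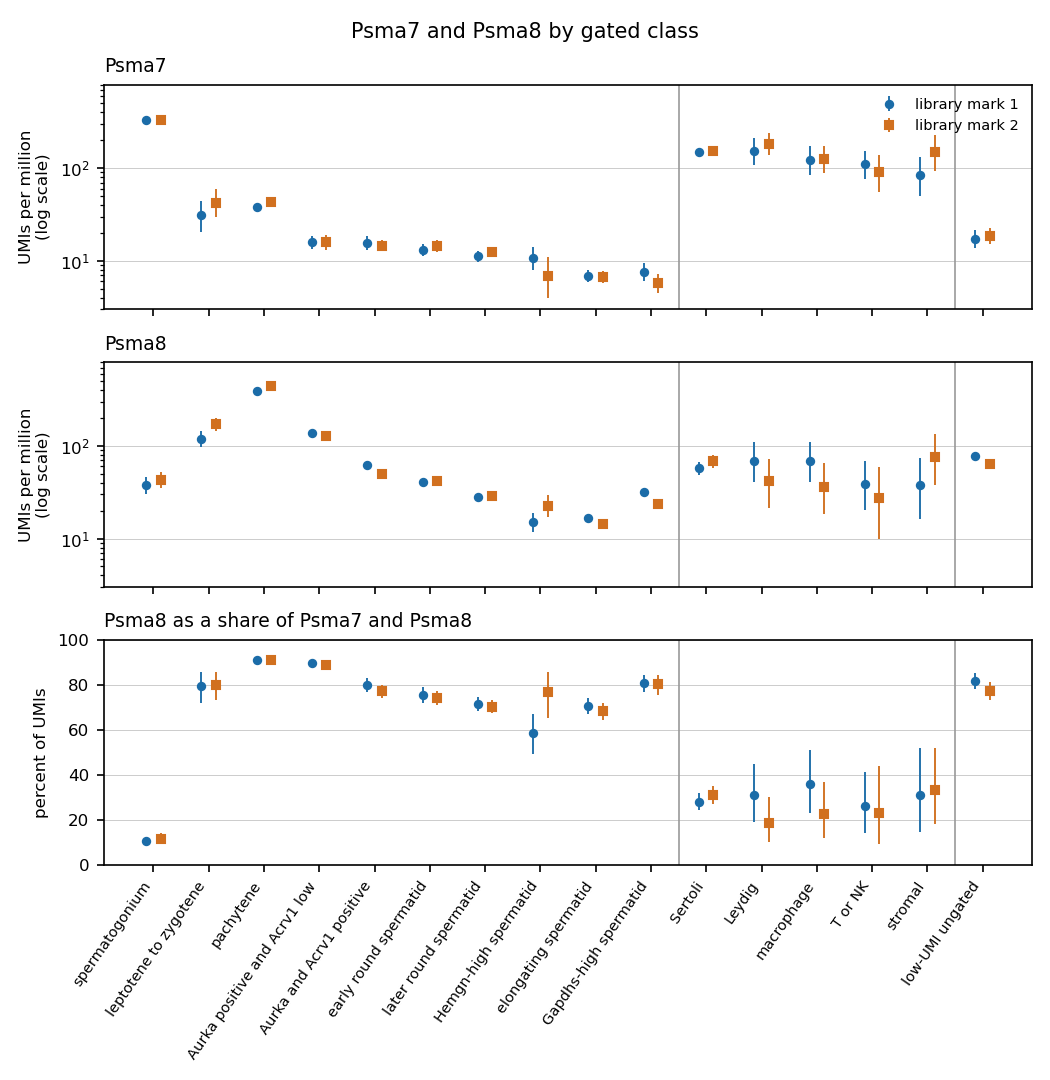
CPM of Psma7 and Psma8 on a log axis and the Psma8 share of their UMIs in percent, by gated class, under mark 1 (circles) and mark 2 (squares). Bars are 95% exact Poisson (levels) or Clopper-Pearson (share) intervals of counting error; the share goes from 10.3% and 11.5% in spermatogonia to 91.0% and 91.1% in pachytene and lies between 18.5% and 36.0% in the somatic gates.

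The other alpha subunits, shared by all forms of the core, were lower in spermatids, with Psma6 as the exception. Psma6 was at 444 and 429 CPM in spermatogonia, 252 and 296 in pachytene, 801 and 763 in early round, 972 and 933 in later round and 1467 and 1543 in elongating spermatids, and 1687 and 1760.1 in the Gapdhs-high gate. Its round spermatid level was 3.61-fold (95% interval 3.48 to 3.74) and 2.94-fold (95% interval 2.83 to 3.05) that of pachytene, and the elongating level 1.62-fold and 1.77-fold that of round spermatids. Psma1, by contrast, went from 115 and 120.4 CPM in spermatogonia to 67.2 and 83.1 in pachytene, 18.6 and 20.3 in later round and 5.53 and 6.2 in elongating spermatids. Subunits that sit in 1 ring in equal number thus parted at the RNA level. The highest of Psma1 to Psma6 was 3.85 and 3.56 times the lowest in spermatogonia and 265 and 249 times in elongating spermatids. UMIs count molecules from the 3′ end, so these levels were set side by side without division by length.

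Psma3 was highest in pachytene, 345 and 384 CPM, and Psma4 in spermatogonia, 360.5 and 353 CPM. Psma2 had the largest fall of the shared alpha genes from pachytene to round spermatids, 5.2-fold and 6.19-fold, followed by Psma1 at 3.24-fold and 3.57-fold. Psma5 had the largest from round to elongating spermatids, 6.91-fold and 6.46-fold. In somatic barcodes Psma6 stood at 807 and 853 CPM in Sertoli and 575 and 692 in macrophage gates, beside 784 and 821 in the low-UMI barcodes, and is not told apart from free RNA there.

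The constitutive beta genes were close to each other in spermatogonia and parted later. Their highest level (Psmb1, 481 and 481 CPM) was 1.68 and 1.63 times the lowest (Psmb5, 286 and 296 CPM). In later round spermatids Psmb6 was at 431 and 462 CPM and Psmb1 at 29.4 and 28.3, a ratio of 14.6 and 16.3. From spermatogonia to pachytene 3 of the 4 structural subunits were lower, beside 43.0% of all genes. These were Psmb1, 2.22-fold and 1.98-fold, Psmb2, 2.92-fold and 2.43-fold, and Psmb3, 2.16-fold and 1.74-fold. The other structural subunit, Psmb4, was not called, with log2 ratios of -0.33 and 0.06. None of the cutting subunits was called there: Psmb5 had log2 ratios of -0.05 and 0.07, Psmb6 of 0.28 and 0.31 and Psmb7 of -0.24 and -0.07.

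The caspase-like cutter Psmb6 was also the 1 constitutive beta gene not called between pachytene and round spermatids, with log2 ratios of -0.0047 and -0.069. Psmb1 had the largest fall there, 6.33-fold (95% interval 5.89 to 6.79) and 7.08-fold (95% interval 6.62 to 7.57), and Psmb5, the chymotrypsin-like cutter, was 2.09-fold and 1.99-fold lower. In elongating spermatids all 7 were lower than in round spermatids, beside 64.0% of all genes. However, Psmb1 turned to the higher side when scaled by the median ratio. Psmb6 went to 91.9 and 83.5 CPM, 4.72-fold and 5.64-fold lower, Psmb5 to 27.5 and 27.6 CPM and the trypsin-like cutter Psmb7 to 36.8 and 39.3 CPM. By gate, Psmb5 was at 158 and 154 CPM in Sertoli, 175 and 259.6 in Leydig, 108 and 139 in macrophage, 101 and 149 in T or NK and 168 and 137 in stromal barcodes, against 126 and 138 in the low-UMI barcodes.

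The induced cutters Psmb8 and Psmb9 were nearly confined, among the gates here, to macrophage and T or NK barcodes. Psmb8 was at 123 (84.5 to 174) and 162 (120.0 to 214) CPM in macrophage and 241 (189.6 to 303) and 221 (163 to 292) CPM in T or NK barcodes. It had 0 UMIs under mark 1 and 1 UMI under mark 2 in all low-UMI barcodes. Psmb8 gave 2 and 0 UMIs in Sertoli, so the macrophage level was 162-fold higher under mark 1 (95% interval 41.3 to 1396) and at least 125-fold higher under mark 2, taking 3 counts per library as the floor. Psmb9 was at 88.8 and 76.2 CPM in macrophage and 68.5 and 54.1 in T or NK barcodes. Leydig and stromal barcodes held little of either: Psmb8 was at 12.2 and 10.4 CPM in Leydig barcodes, on 3 UMIs each, and 4.68 and 20.5 in stromal barcodes, on 1 and 3 UMIs. In the germ gates Psmb8 did not exceed 1.07 CPM, and Psmb9 exceeded 1 CPM in spermatogonia only, at 3.21 and 3.98.

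Psmb10 had a wider range. It was at 52.6 and 65.9 CPM in spermatogonia, near its macrophage level of 46.3 and 59.6 and above its T or NK level of 32.6 and 27.1. In pachytene it was at 8.32 and 8.41 CPM, 6.32-fold (95% interval 4.85 to 8.27) and 7.84-fold (95% interval 5.99 to 10.3) lower, and from the Aurka positive gates to the Gapdhs-high gate it stayed between 0.991 and 2.81 CPM. The low-UMI level was 3.91 and 1.73 CPM, and Sertoli barcodes were at 9.15 and 7.37. Of the 3 induced subunits, Psmb10 was thus the most abundant in spermatogonia. Psmb10 and its partner Psmb7 differed there: Psmb10 made up 14.8% (131 of 885 UMIs, interval 12.5% to 17.3%) and 16.9% (149 of 884 UMIs, interval 14.4% to 19.5%) of their UMIs, while Psmb8 made up 0.14% and 0.299% of those of Psmb5 and Psmb8.

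As a share of all 6 paired cutters, the induced genes reached 33.3% (67 of 201 UMIs, interval 26.9% to 40.3%) and 35.3% (90 of 255 UMIs, interval 29.4% to 41.5%) in macrophages and 39.9% (105 of 263 UMIs, interval 34% to 46.1%) and 32.8% (67 of 204 UMIs, interval 26.4% to 39.7%) in T or NK barcodes. They stood at 5.56% and 7.17% in Leydig, 6.35% and 7.22% in stromal, 5.6% and 6.49% in spermatogonium and 1.67% and 1.13% in Sertoli barcodes. Pachytene had 0.861% and 0.75% and the low-UMI barcodes 0.709% and 0.294%. The free RNA estimates given above are high in the immune gates, and their part in these shares was not tested. By pair, Psmb8 was 70.5% and 59.8% of its pair in T or NK and 53.3% and 53.8% in macrophage barcodes, Psmb9 18.9% and 14% in T or NK and 24% and 22.5% in macrophage barcodes, and Psmb10 21.3% and 16.7% and then 26.7% and 29%. The shares of each pair are drawn by class.

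**Figure D4:**
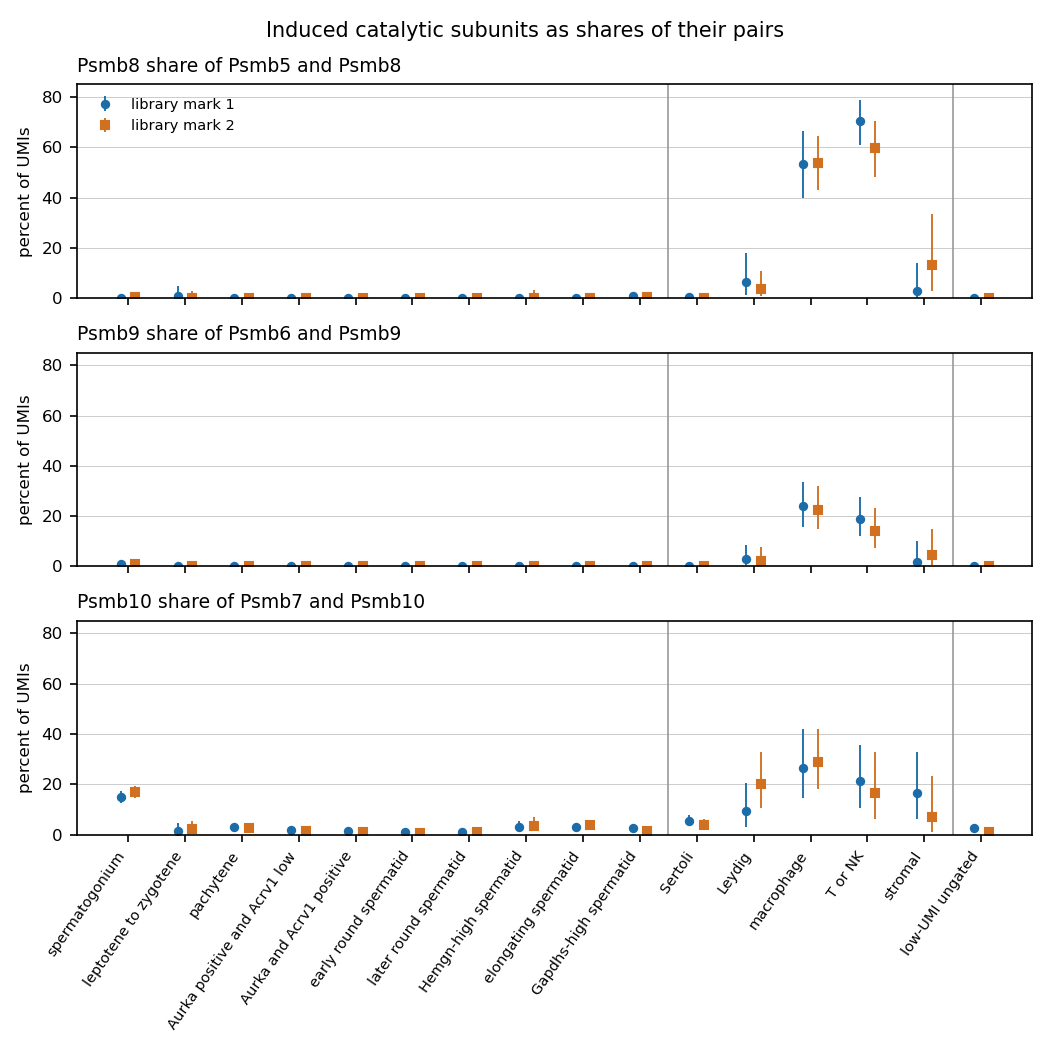
Share of Psmb8, Psmb9 and Psmb10 in the UMIs of each with its constitutive partner (percent), by gated class, under mark 1 (circles) and mark 2 (squares), with 95% Clopper-Pearson intervals. Psmb8 passes 50% of its pair in macrophage and T or NK barcodes, and Psmb10 reaches 14.8% and 16.9% in spermatogonia, where the other induced genes are near 0.

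The ATPases of the base, which form 1 ring of 6, parted in the same way as the alpha ring. Psmc3 was at 409 and 438 CPM in spermatogonia, 717 and 659.6 in pachytene, 1042 and 1085 in the Aurka positive and Acrv1 low gate and 868 and 875 in later round spermatids. Psmc2 stood at 229.9 and 215 CPM in spermatogonia, 388 and 386 in pachytene, 526 and 536 in later round and 392 and 381 in elongating spermatids. Both were higher in pachytene than in spermatogonia (1.75-fold and 1.51-fold for Psmc3, 1.69-fold and 1.79-fold for Psmc2), calls that ended with barcodes thinned to 3000 UMIs. Psmc6 went the other way, from 150.3 and 148 CPM to 54.9 and 73.3 in pachytene and 23.8 and 25.6 in the Aurka positive and Acrv1 low gate. In that gate the highest ATPase was 43.8 and 42.3 times the lowest, against 4.3 and 3.83 times in spermatogonia.

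Psmc1 (4.15-fold and 3.67-fold) and Psmc4 (3.14-fold and 3.55-fold) were the ATPases lower in round spermatids than in pachytene. In elongating spermatids 5 of 6 were lower than in round ones, beside 64.0% of all genes, with Psmc4 5.43-fold and 5.02-fold lower. Psmc2, the exception, had log2 ratios of -0.41 and -0.48 and was the most abundant ATPase there. Somatic levels of Psmc2 and Psmc3, such as 662 and 631 CPM of Psmc3 in Sertoli barcodes, were not above those of the low-UMI barcodes (817 and 812 CPM for Psmc3) by the 1.5-fold rule.

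Of the large base subunits, the scaffold genes Psmd1 and Psmd2 and the ubiquitin receptor Psmd4 were not called between pachytene and spermatogonia. All of them were lower in round spermatids than in pachytene, beside 39.9% of all genes. Psmd1 had the largest fall, 7.45-fold (95% interval 6.71 to 8.27) and 7.55-fold (95% interval 6.86 to 8.31), from 115 and 127 CPM to 17.8 and 20.6 in early round spermatids. Psmd2 was 1.82-fold and 1.91-fold lower and Psmd4 2.07-fold and 1.95-fold lower, and the calls of both ended after scaling by the median ratio. Psmd14, the lid enzyme that removes ubiquitin chains, was at 81.2 and 91.8 CPM in pachytene and 6.48 and 10.1 in later round spermatids, and 10.1-fold (95% interval 8.79 to 11.6) and 8.17-fold (95% interval 7.28 to 9.18) lower in round spermatids together. That was the largest fall in the lid. Psmd8 was the most abundant lid gene in all 15 gates under both marks, at 294 and 294 CPM in spermatogonia and 324 and 319 in elongating spermatids. It was higher in pachytene than in spermatogonia, 1.64-fold and 1.63-fold, and Psmd11 was lower, 1.95-fold and 1.69-fold. The highest lid gene was 4.52 and 4.21 times the lowest in spermatogonia and 66.7 and 43.7 times in later round spermatids.

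Psmd5, Psmd9 and Psmd10 (gankyrin) are chaperones that place the ATPases in the base and leave it before it works. Psmd10, the X-linked member, was at 30.1 (23.7 to 37.8) and 38.1 (30.4 to 47) CPM in spermatogonia and 2.59 (1.77 to 3.65) and 2.93 (1.99 to 4.16) CPM in pachytene, 11.7-fold (95% interval 7.61 to 18.2) and 13-fold (95% interval 8.52 to 20.3) lower. It stood at 34.1 and 23.1 CPM in the leptotene to zygotene gate and 3.84 and 5.21 in the Aurka positive and Acrv1 low gate. It was then at 54.2 and 64.2 CPM in the Aurka and Acrv1 positive gate, 64.3 and 72.6 in early round, 65.9 and 72 in later round, 23.5 and 20.5 in Hemgn-high, 8.62 and 9.28 in elongating and 12.7 and 13.5 in Gapdhs-high spermatids. Its level in round spermatids was 25.2-fold (95% interval 17.8 to 37) and 24.6-fold (95% interval 17.3 to 36.3) that of pachytene. X-linked genes are known to be silenced together in pachytene, and of 379 of them measured 365 (96.3%) were lower than in spermatogonia and 0 higher, with a median log2 ratio of -5.54 and -5.50. In round spermatids 381 of 417 (91.4%) were higher than in pachytene.

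Psmd10 in somatic barcodes, at 22.5 and 25.6 CPM in Sertoli, 24.4 and 55.4 in Leydig, 38.6 and 39.7 in macrophage, 39.2 and 49.6 in T or NK and 9.36 and 13.7 in stromal gates, stood against a low-UMI level of 32.5 and 33.4. By the 1.5-fold rule only the stromal gate, on 2 UMIs under each mark, was called, and it was lower. The autosomal Psmd5 was at 73.1 and 74.3 CPM in spermatogonia and 8.53 and 13.4 in the leptotene to zygotene gate, with 15.2 and 14.8 in pachytene, 4.81-fold (95% interval 3.9 to 5.93) and 5.01-fold (95% interval 4.01 to 6.27) lower than spermatogonia. It reached 4.59 and 4.06 CPM in later round spermatids. Psmd9 was flat by comparison, 63.9 and 59.3 CPM in spermatogonia and 82.3 and 95.7 in pachytene, with its highest level, 111 and 134, in the Aurka and Acrv1 positive gate. The chaperones thus did not move as 1 group.

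The caps each took a course of their own, apart from Psme1 and Psme2, which form 1 mixed ring known as PA28 alpha and beta. In spermatogonia they were an even pair, Psme1 at 123 and 131 CPM and Psme2 at 119 and 124. In the leptotene to zygotene gate Psme1 was at 7.47 and 4.86 CPM and Psme2 at 8.53 and 4.86. Pachytene barcodes held 1.13 (0.618 to 1.9) and 0.756 (0.326 to 1.49) CPM of Psme1 and 1.29 (0.739 to 2.1) and 2.08 (1.3 to 3.15) CPM of Psme2, on 14 and 8 and on 16 and 22 UMIs. Psme1 was 109-fold (95% interval 63.8 to 201) and 173-fold (95% interval 86.5 to 404) lower than in spermatogonia and Psme2 91.7-fold (95% interval 55.5 to 163) and 59.8-fold (95% interval 38.7 to 97) lower. In every later germ gate both stayed at or below 1.69 CPM, about the low-UMI level of 1.44 and 1.54 for Psme1 and 0.412 and 1.54 for Psme2.

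Every somatic gate held both, with the lowest levels in Sertoli barcodes. Psme1 was at 81.4 and 132 CPM in Leydig, 139 and 109 in macrophage, 111 and 122 in T or NK and 51.5 and 68.3 in stromal barcodes. Psme2 was at 65.1 and 69.2 CPM in Leydig, 77.2 and 76.2 in macrophage, 94.6 and 72.1 in T or NK and 37.4 and 27.3 in stromal barcodes. Sertoli barcodes had 6.86 and 9.54 CPM of Psme1 and 22.9 and 23 of Psme2, above the low-UMI level of both genes. Against Sertoli, Psme1 was 20.3-fold (95% interval 11.2 to 37.9) and 11.5-fold (95% interval 6.48 to 20.6) higher in macrophage and 16.2-fold (95% interval 8.88 to 30.4) and 12.8-fold (95% interval 7.0 to 23.5) higher in T or NK barcodes.

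Psme3, the nuclear cap PA28 gamma, followed another course. It was at 86 and 88.9 CPM in spermatogonia, 45.9 and 77.7 in the leptotene to zygotene gate, 34.2 and 36.1 in pachytene, 19.6 and 18.6 in the Aurka positive and Acrv1 low gate, 21.9 and 18.5 in the Aurka and Acrv1 positive gate, 25.7 and 23.1 in early round and 24.6 and 22.8 in later round spermatids. Hemgn-high spermatids were at 167 (155 to 178) and 156 (141 to 172) CPM and elongating spermatids at 133 and 111, 5.33-fold (95% interval 4.93 to 5.76) and 4.83-fold (95% interval 4.48 to 5.22) above round spermatids. The Gapdhs-high gate was back at 26.8 and 24.4 CPM. In somatic barcodes Psme3 lay between 40.6 and 54.6 CPM, against a low-UMI level of 50.5 and 57.6.

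Psme4 was the steadiest of the caps. It stood at 132 and 119 CPM in spermatogonia, 183 and 175 in the leptotene to zygotene gate, 191 and 152 in pachytene, 228 and 169 in the Aurka positive and Acrv1 low gate, 209 and 163 in the Aurka and Acrv1 positive gate, 183 and 164 in early round and 184 and 151 in later round spermatids. It was at 109 and 99.7 CPM in Hemgn-high, 139 and 121 in elongating and 118 and 97.5 in Gapdhs-high spermatids. No germ comparison called it: log2 ratios were 0.53 and 0.35 in pachytene against spermatogonia, -0.06 and 0.04 in round spermatids against pachytene and -0.40 and -0.37 in elongating against round spermatids. Subtracting free RNA brought it past the threshold in the first of these, and scaling by the median ratio in the first and the last. In somatic barcodes it was at 179 and 153 CPM in Sertoli, 171 and 166 in Leydig, 185 and 166 in macrophage, 271 and 229.9 in T or NK and 182 and 129.8 in stromal gates, with 192 and 174 in the low-UMI barcodes.

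The share of Psme4 in the UMIs of the 4 caps changed by class. It was 28.8% (329 of 1144 UMIs, interval 26.1% to 31.5%) and 25.8% (270 of 1047 UMIs, interval 23.2% to 28.6%) in spermatogonia, 74.8% and 66.7% in the leptotene to zygotene gate and 83.9% (2363 of 2816 UMIs, interval 82.5% to 85.3%) and 79.6% (1609 of 2021 UMIs, interval 77.8% to 81.4%) in pachytene. The highest shares were 91.6% and 89.1% in the Aurka positive and Acrv1 low gate and 90.3% and 89.1% in the next. Later round spermatids had 87.7% and 86.4%, Hemgn-high spermatids 39.4% and 38.8%, elongating spermatids 50.7% and 51.8% and Gapdhs-high spermatids 81.1% and 78.9%. In somatic gates the share ran from 40.0% (Leydig, mark 2) to 69.8% (Sertoli, mark 1), and the low-UMI barcodes had 78.6% and 74.1%. The part of free RNA in these shares and in that of the leptotene to zygotene gate was not tested.

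Psmf1 (PI31), first described as an inhibitor of the core, was higher in spermatids than the caps. It was at 159.9 and 161 CPM in spermatogonia, 217 and 216 in the leptotene to zygotene gate, 121 and 134 in pachytene, 117 and 122 in the Aurka positive and Acrv1 low gate and 166 and 184 in the Aurka and Acrv1 positive gate. From 281 and 261 CPM in early round and 307 and 301 in later round spermatids it reached 739 and 733 in Hemgn-high and 1198 and 1183 in elongating spermatids, with 489 and 482 in the Gapdhs-high gate. Round spermatids were 2.46-fold (95% interval 2.33 to 2.6) and 2.13-fold (95% interval 2.02 to 2.26) above pachytene and elongating spermatids 4.03-fold (95% interval 3.94 to 4.13) and 4.13-fold (95% interval 4.04 to 4.22) above round ones. Sertoli barcodes had 397 and 392 CPM, Leydig 219.9 and 374, macrophage 262 and 195, T or NK 319.8 and 289 and stromal 211 and 212, against 356 and 337 in the low-UMI barcodes. No somatic level passed the low-UMI level by the 1.5-fold rule.

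**Figure D5:**
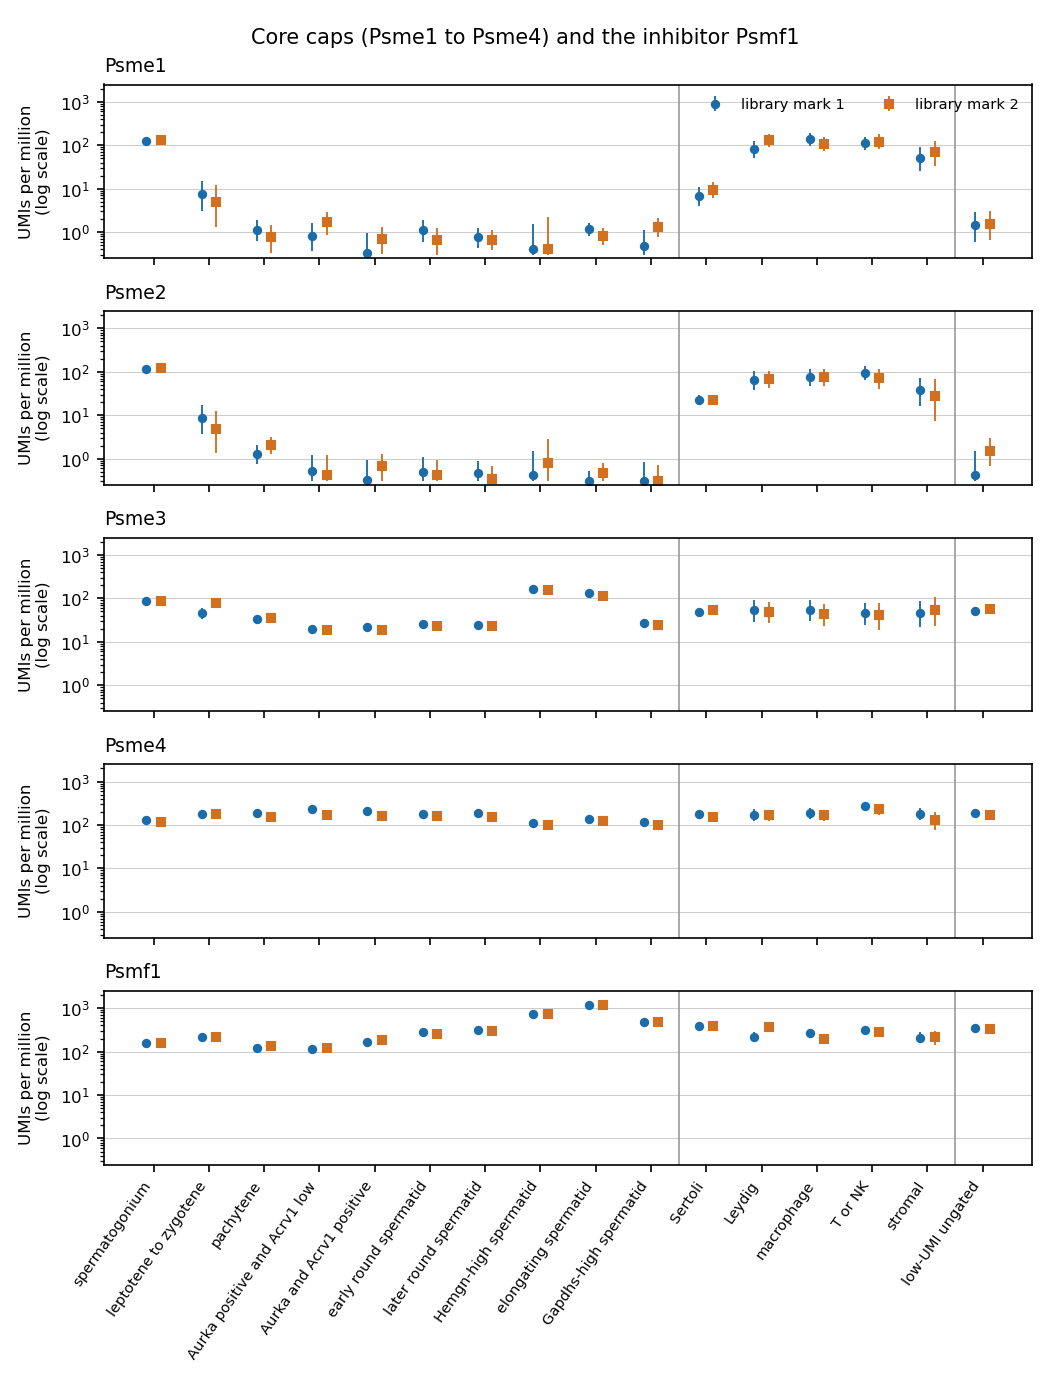
CPM on a log axis of the caps Psme1 to Psme4 and of Psmf1 by gated class, under mark 1 (circles) and mark 2 (squares), with 95% exact Poisson intervals; values under 0.3 are drawn at 0.3. Psme1 and Psme2 are at or under 8.53 CPM in the germ gates after spermatogonia and at 27.3 CPM or more in Leydig, macrophage, T or NK and stromal barcodes; Psme3 is highest in Hemgn-high spermatids, Psme4 varies least and Psmf1 is highest in elongating spermatids.

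Psmg1 to Psmg4 assemble the core, in 2 pairs, before it is finished. None was called between pachytene and spermatogonia. Psmg3 had the largest fall of all members from pachytene to round spermatids, 34.2-fold (95% interval 20.6 to 60.9) and 22.7-fold (95% interval 16.1 to 32.8), from 17.4 and 23 CPM to 0.506 and 1.44 in early round spermatids. Its partner Psmg4 was 2.38-fold and 2.66-fold lower. Psmg1 was at 121 and 139.5 CPM in pachytene and 21.3 and 22.9 in later round spermatids, 5.25-fold and 5.47-fold lower in the round spermatids together. Its partner Psmg2 was not called there, with log2 ratios of 0.08 and -0.13, and then fell 9.26-fold and 10.9-fold in elongating spermatids, more than any other member. In both pairs the partners differed in size of change from pachytene to round spermatids.

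Of 45 members measured, 28 were lower and 4 higher in Sertoli barcodes than in spermatogonia, where 42.7% of 12120 genes were lower and 29.6% higher. The 4 were Psma6, Psma8, Psmc2 and Psmf1, all near their low-UMI levels in Sertoli barcodes. In a comparison added after the data were seen, spermatogonia had 29 of 45 members above the low-UMI barcodes by the same rule, beside 42.1% of genes, and 4 below, beside 35.1%. Sertoli barcodes had 8 of 45 above them, beside 12.2% of genes, and 0 below, beside 7.85%. These 8 were Psma2, Psma7, Psmb3, Psmb10, Psmd7, Psme1, Psme2 and Psmg3. Leydig barcodes had 10 of 43 above and 0 below, beside 12.9% and 9.76% of genes. Macrophage barcodes had 12 of 45 above and 2 below (14.9% and 11.9%), T or NK barcodes 12 of 44 above and 2 below (13% and 7.37%), and stromal barcodes 9 of 41 above and 2 below (20.8% and 10.4%). Psma2, Psma7 and Psmb3 were above in all 5 somatic gates. The macrophage count above includes Psmb8 and Psmb9, and the T or NK count includes Psmb8. In the low-UMI barcodes Psmb8 had 0 and 1 UMIs and Psmb9 had 2 and 0. They passed the filter of 20 UMIs only through the immune gates, so these calls could not have come out otherwise.

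Macrophage barcodes had 8 of 46 members higher than Sertoli barcodes, beside 10.7% of 9207 genes, and 2 lower (Psmd7 and Psmf1), beside 9.5%. The higher ones were Psmb8, Psmb9, Psmb10, Psme1, Psme2, Psma1, Psmd10 and Psmg4. T or NK barcodes had 9 of 45 higher, beside 8.88% of 9030 genes, and 1 lower (Psmd13), beside 8.18%. Here the higher ones were Psmb8, Psmb10, Psme1, Psme2, Psme4, Psma1, Psmb1, Psmd10 and Psmg4. Psmb8 and Psme1, known to answer to interferon, were among the largest ratios in both gates, and a part of interferon was not tested. Psmb9 was not measured in the T or NK comparison. Sertoli barcodes held 2 and 0 UMIs of Psmb8 and 3 and 0 of Psmb9. Both genes thus reached the filter of 20 UMIs only through the immune gates. Psmb8 had 32 and 49 UMIs in macrophage and 74 and 49 in T or NK barcodes. Psmb9 had 23 and 23 UMIs in macrophage barcodes. With so few Sertoli UMIs, a measured gene could only be called higher. The filter therefore fixed these calls, which are counted in the 8 and the 9. Psme1, Psme2 and Psmb10 also had high levels in spermatogonia, as given above. The intervals of Psmd10 included a ratio of 1 under both marks in each gate, and the Psme4 call of 1.52-fold and 1.51-fold ended under 5 alternatives beside the higher fold. Scaling by the median ratio removed the calls of lower members in both.

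Genes that work with the proteasome were counted from 3 lists chosen with earlier results of these data known. Of 27 partners (shuttles, deubiquitinases and the regulator Nfe2l1), 11 were lower in pachytene than in spermatogonia, near the 43.0% of all genes, with a median log2 ratio of -0.34 and -0.50. Nfe2l1, which drives proteasome genes when the proteasome is inhibited, was 4.91-fold and 5.48-fold lower. In round spermatids 6 of 26 partners were higher and 15 lower than in pachytene, beside 35.3% and 39.9% of all genes. The partners' median log2 ratio was -1.22 and -1.18, below that of all genes, as for the members. Pomp, the maturation factor of the core, was at 18.7 and 21.2 CPM against 157 and 181, and the protease Ddi1 at 184 and 174 against 15.9 and 17.1. Elongating spermatids had 17 of 26 lower than round ones, a share near the 64.0% of all genes, among them Sem1 of the lid, 8.14-fold and 7.95-fold. Only 1 was higher, Ufd1, beside 13.9% of all genes. The partners' median log2 ratio there was -0.90 and -0.90.

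Ubiquitin and its enzymes went against the members in round spermatids. Of 14 measured, 9 were higher and 2 lower than in pachytene, beside 35.3% and 39.9% of all genes, with median log2 ratios of 0.93 and 0.93. They included the X-linked Uba1, the main activating enzyme, 7.34-fold and 5.47-fold higher after having been 30.3-fold and 34.3-fold lower in pachytene than in spermatogonia, and Ube2a, also X-linked, 18.7-fold and 16-fold higher. In pachytene against spermatogonia 8 of 14 were lower and 2 higher, beside 43.0% and 23.9% of all genes. In elongating against round spermatids 7 were lower and 4 higher, beside 64.0% and 13.9% (median log2 ratio of the list -0.70 and -0.67). The higher Ube2k stood at 705 and 726 CPM in elongating against 262 and 246 in round spermatids, and Ube2a was 9.51-fold and 9.11-fold lower. Of the class I presentation genes, which load peptides that the proteasome cuts, B2m was 82.8-fold and 103-fold higher in macrophage and 60.9-fold and 57.9-fold higher in T or NK than in Sertoli barcodes. For H2-K1 the ratios were 18.8-fold and 25.5-fold in macrophage and 20.3-fold and 21.8-fold in T or NK barcodes. In all, 5 of 7 genes of that list were higher in macrophage barcodes, beside 10.7% of all genes, and 0 lower, beside 9.5%. In T or NK barcodes 4 of 7 were higher, beside 8.88%, and 0 lower, beside 8.18%. The list's median log2 ratios were 2.18 and 2.45 in macrophage and 2.63 and 2.38 in T or NK barcodes, where those of all genes were -0.13 and -0.13 and -0.07 and -0.01.

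Over the 15 gates and both marks (30 points), the genes whose log2(CPM + 10) was most like that of Psma8 were Glipr1l2 (Pearson r 0.95), Pcgf6 (0.949), Tesmin (0.949), 4930579G24Rik (0.946) and Sdf2l1 (0.945). For Psme4 they were Rab21 (0.820), Lancl2 (0.817), Cep120 (0.783), Ppp2r5c (0.769) and Slc26a8 (0.766). The points share libraries, depth and free RNA, so these values describe likeness and nothing more. Likeness to Psme4 was looser throughout.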

How the data were processed

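Single-cell RNA was counted for 2 suspensions of adult mouse testis, 1 per genotype. The deposited values are UMI counts per gene and barcode, made by the authors with Cell Ranger 1.3.1 and Seurat 3.2.2 on GRCm38, per the submitters' processing notes; the labels' protocols name 3′ libraries of polyadenylated RNA and removal of debris by sorting. The sources used here do not say how reads that match several genes were treated. Barcodes in the table held 3529 to 244157 UMIs in the table.

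With numpy 2.4.6, pandas 2.3.3, scipy 1.17.1, raw counts were summed over the barcodes of a gate and divided by the gate's total (CPM). The 7 gates from pachytene to elongating spermatid require 10000 UMIs per barcode. No doublet caller was run; leaving out the deepest barcodes of each gate stands in for it. The members, gene lists, comparisons and markers were chosen with earlier results of these data known. Genes outside a fixed set were named by the largest ratio, up to 4 for each role or list. Intervals, exact Poisson, Clopper-Pearson or conditional binomial at 95%, and floors of 3 counts cover counting error only. Likeness used genes of 200 UMIs or more and a pseudocount of 10 CPM. With 1 library per genotype and no map from marks to genotypes, the table was treated as 1 sample and no test was made. The size rule was tested on simulated data. Alternatives were other cuts, scaling, thinning, filters, folds, subtraction of free RNA and, added after the data were seen, leaving out the barcode sequences found under both marks.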

Additional observations from a re-analysis of the deposited data

How the results depend on the processing

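Of 82 alternatives to the counts of members called and the main class shares, 72 left the value within 1.5 times or within its interval. The counts of members took both directions together, so a changed split could pass. In pachytene against spermatogonium, scaling by the median ratio turned 4 higher and 14 lower into 13 higher and 10 lower. That passed, as 23 members against 18. At a fold of 2, the members called were 10 in pachytene against spermatogonium (18 at 1.5), 5 in macrophage against Sertoli and 4 in T or NK against Sertoli (10 in each at 1.5). With barcodes thinned to 3000 UMIs the last 2 counts were 5 and 6, and with at least 100 UMIs per gene 2 and 3. The Psme4 share of the caps in pachytene, 82.1% over both marks, was 83.6% with free RNA subtracted, 79.6% as a mean of barcodes and 77.9% with thinned barcodes. Scaling by the median ratio turned 5 members of the elongating against round comparison to a mean log2 ratio above 0: Psma7 0.31, Psma8 0.090, Psmb1 0.31, Psmd4 0.21 and Psmd14 0.053. The cause of these changes was not tested. Over single members, 2584 of 2746 alternatives kept direction and call, 111 lost the call and 46 gained one. Free RNA could not be subtracted in the comparisons with elongating spermatids or somatic gates. No paired analysis was possible because the marks are not tied to genotypes and each genotype has 1 library. Low somatic depth limits Psmb8, Psmb9 and Psmd10 there.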
